A study of Mus musculus with 6 samples.

Results

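Bone-forming cells read a set of circulating and local hormones through 2 kinds of receptor. Receptors for parathyroid hormone, growth hormone and angiotensin II sit in the plasma membrane and signal through G proteins or JAK kinases. Receptors for vitamin D, thyroid hormone, retinoic acid, oestrogen and glucocorticoid are transcription factors whose activity is set by their ligand. In bone, parathyroid hormone drives turnover and, given in pulses, formation, vitamin D acts on mineral supply and on osteoblast genes, and glucocorticoid in excess lowers bone formation. The 9 receptor genes described here are Pth1r, Ghr, Agtr1a, Vdr, Thra, Thrb, Rarg, Esr1 and Nr3c1. They were picked out by gene name among 29018 genes in the deposited table. Each symbol had a single identifier, and all 9 were among the 18221 genes with enough counts to be tested.

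The cells were osteoblasts cultured from the calvaria, the flat bones of the skull vault, of newborn mice and then put through osteogenic differentiation. The genotypes were wild type (WT) and a knockout (KO) of Stk38, the gene of the kinase NDR1, with 3 libraries of polyA RNA each. Strain, sex, the hormones in the medium, the day of harvest and the structure of the KO allele were not given in the sources used here. Nor do the labels call the replicates separate animals or cultures, so the p-values weigh differences against a spread among libraries that could be technical. The comparison asks here whether the mRNA of the hormone receptors, of their ligand supply and of their known target genes differed between KO and WT.

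Library totals ran from 61461870 to 76159034 counts. The Stk38 mRNA itself was read in KO at 65.6% of the WT level (95% interval 60.8 to 70.6%). Counts per gene do not show whether NDR1 protein was lost. With edgeR's quasi-likelihood test and a Benjamini-Hochberg adjusted p under 0.05, 2048 of all tested genes (11.2%) were higher and 2131 (11.7%) lower in KO, 22.9% in all. Of the osteoblast markers, Col1a1, Runx2, Sp7 and Alpl were read in all libraries, and all but Sp7 were lower in KO. These genes were chosen after their values were seen, and Spp1, another of the osteoblast markers, was higher in KO (log2 change 1.39). Alpl, the alkaline phosphatase of mineralising cells, fell from 22.3 ± 0.55 to 10.1 ± 0.872 FPKM, a log2 change of -1.19 ± 0.06 (SE). FPKM counts fragments scaled by transcript length and by library size, so that genes compare per length. Bglap, an osteocalcin gene of mature osteoblasts, was at 0.275 to 1.6 FPKM. Markers of other cells also differed between genotypes. Of 12 macrophage markers 11 were higher (summed level 126 to 137 FPKM in KO and 39.4 to 55.6 in WT). Of 8 adipocyte markers 7 were lower (14.2 to 15.4 and 29.3 to 31.2 FPKM), with Adipoq, Plin1, Cidec and Pck1 at 0 counts in at least 1 library. Of 7 tested skeletal muscle markers 3 were lower and none higher. Of 10 smooth muscle and pericyte markers 5 were higher and 4 lower, of 8 fibroblast markers 5 were lower, and of 8 cartilage markers 2 were higher and 3 lower. Of 6 tested endothelial markers 2 were lower, of 8 osteoclast markers 3 were lower, of 5 Schwann cell and neuron markers 3 were higher, and of 12 osteoblast markers 2 were higher and 5 lower. The part of these cells in the receptor results below was not tested. In libraries of whole cultures, fewer cells of a type and less RNA per cell cannot be told apart.

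Of the 9 receptors, 5 were lower in KO, 1 was higher and 3 were not called, against 22.9% called among all tested genes. The median log2 change of KO over WT was -0.16 over the 9 receptors and 0.00 over all tested genes. Among the called receptors, Agtr1a fell the most, followed by Thra, Pth1r, Nr3c1 and Rarg, and Vdr alone rose. Esr1, which was not called, had a log2 difference of -0.59, larger in size than that of Thra (-0.47). In CPM, counts scaled to library size and between libraries by TMM, the 3 KO values of 7 receptors lay wholly to one side of the 3 WT values, as did those of 38.2% of all tested genes. The size of the change ran from 40.5% of the WT level for Agtr1a to 135% for Vdr.

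**Figure D1:**
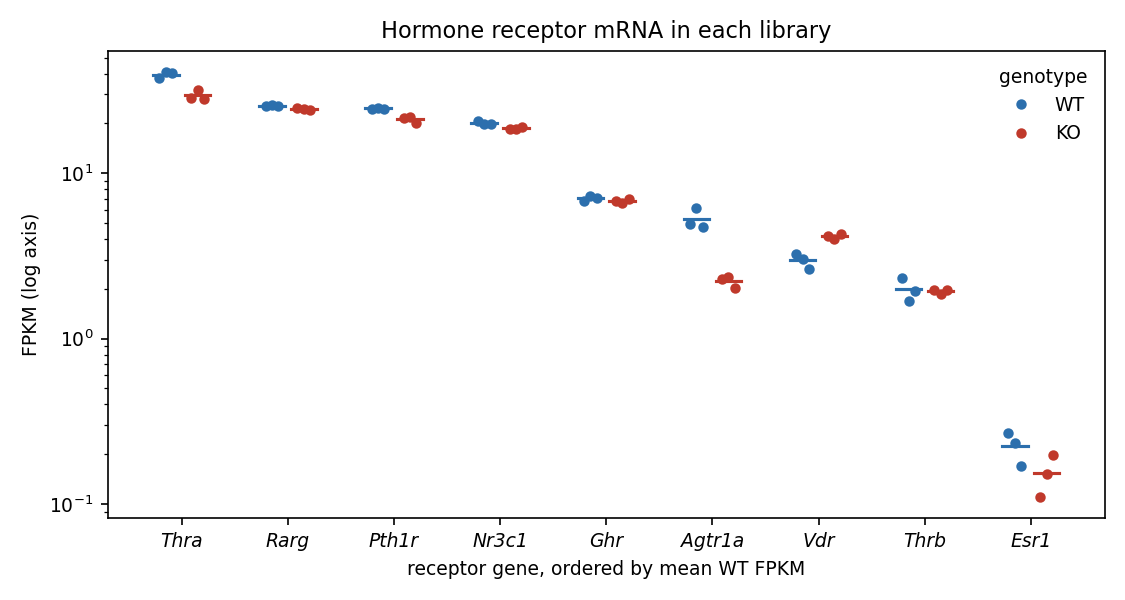
FPKM of the 9 receptor genes on a log axis, ordered by the WT mean, with a point for each of the 3 WT (blue) and 3 KO (red) libraries and a line at the mean. Thra leads in both genotypes, Esr1 lies lowest at under 0.3 FPKM, and Agtr1a and Vdr change places between genotypes.

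The receptors covered a wide range of levels. In WT the order by mean FPKM was Thra (39.5), Rarg (25.6), Pth1r (24.6), Nr3c1 (20.2), Ghr (7.05), Agtr1a (5.28), Vdr (2.97), Thrb (1.98) and Esr1 (0.224). Each of these ranges over 3 libraries was separate from the next. The order in KO was the same except that Vdr (4.15) stood above Agtr1a (2.21), again with no overlap between neighbours. Oestrogen receptor mRNA was thus the scarcest of the set, with 124 to 261 counts per library, while Thra and Nr3c1 had 9338 counts or more.

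Angiotensin II, the peptide that raises blood pressure, acts mostly through type 1 receptors, which mice encode in a pair of genes, Agtr1a and Agtr1b. Agtr1a, the main vascular and renal form, had 507, 427 and 454 counts in KO replicates 1 to 3 and 972, 1217 and 963 in WT. Its level was 2.29, 2.35 and 2.01 FPKM in KO and 4.93, 6.16 and 4.76 in WT. The groups did not overlap, and WT replicate 2 was the highest library. The log2 change was -1.30 ± 0.11 (SE, n = 3 per genotype), which left 40.5% of the WT level (95% interval 34.0 to 48.3%), and the edgeR adjusted p was 1.64e-05.

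Agtr1b, the form known from the adrenal and pituitary glands, moved the other way. Its counts were 892, 815 and 743 in KO and 310, 275 and 372 in WT, or 5.23, 5.82 and 4.27 FPKM against 2.04, 1.81 and 2.39. All KO libraries were above all WT libraries, with a log2 change of 1.24 ± 0.14 (edgeR adjusted p = 1.10e-04). Added together, the pair gave 7.51, 8.17 and 6.28 FPKM in KO and 6.96, 7.97 and 7.15 in WT. The sums overlapped, at 7.32 ± 0.957 against 7.36 ± 0.538 FPKM (SD, n = 3), and p was 1 by exact permutation (two-sided). Agtr1a made up 30.4, 28.7 and 32% of the sum in KO and 70.7, 77.3 and 66.6% in WT. This share differed by -41.2 percentage points without overlap, at the smallest exact permutation p that 3 against 3 libraries allow (0.1). The sum and this ratio were added after the values of both genes had been seen. Agtr2, the receptor that often opposes type 1 signalling, was at 1.89, 1.87 and 2.14 FPKM in KO and 1.74, 1.85 and 1.12 in WT. The lowest KO library was just above the highest WT library, but the log2 difference of 0.28 ± 0.18 was not called (edgeR adjusted p = 0.333).

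**Figure D2:**
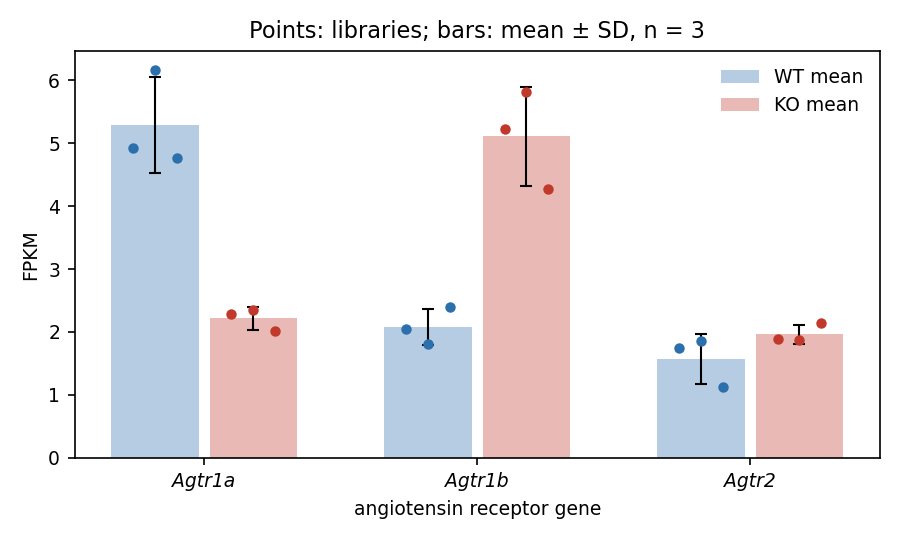
FPKM of Agtr1a, Agtr1b and Agtr2, with a point per library, bars at the mean and error lines of 1 SD (n = 3; WT blue, KO red). The Agtr1a bar is higher in WT (5.28 against 2.21) and the Agtr1b bar higher in KO (5.11 against 2.08), while Agtr2 was not called.

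The type 1 genes are close copies, so reads could in principle be counted for the wrong member, and their sequences show how far they can be told apart. Each is coded by a single exon of 1080 bases, at chr13:30380954-30382033 (plus strand) for Agtr1a and chr3:20315361-20316440 (minus strand) for Agtr1b, in GENCODE release M21 on the GRCm38 build. The coding sequences differ at 99 bases (90.8% identity). The first 300 coding bases of each, 5′ to 3′, are shown with the 24 bases that differ in capitals.
Agtr1a: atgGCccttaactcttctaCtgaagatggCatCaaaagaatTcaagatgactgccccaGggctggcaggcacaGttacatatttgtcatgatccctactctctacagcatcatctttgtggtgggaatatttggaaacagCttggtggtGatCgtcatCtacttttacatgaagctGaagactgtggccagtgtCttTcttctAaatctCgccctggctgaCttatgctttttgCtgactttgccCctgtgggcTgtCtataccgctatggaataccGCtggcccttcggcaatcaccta
Agtr1b: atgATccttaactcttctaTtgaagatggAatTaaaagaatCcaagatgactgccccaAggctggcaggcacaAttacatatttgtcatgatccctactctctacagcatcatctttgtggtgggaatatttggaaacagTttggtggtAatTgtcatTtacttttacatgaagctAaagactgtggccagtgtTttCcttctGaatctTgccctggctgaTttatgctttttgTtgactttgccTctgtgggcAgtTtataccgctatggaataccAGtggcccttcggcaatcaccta
The longest stretch without a difference was 66 bases. Of 1006 windows of 75 coding bases none lacked a difference, and of 1031 windows of 50 bases 33 did (3.2%). Read length and the rule for reads that fit both genes were not given in the sources used here, so the split between the genes keeps that uncertainty. The deposited span of Agtr1a also holds a lowly read long noncoding gene on the same strand, Gm48161, with 208 counts over the 6 libraries.

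Pth1r encodes the receptor shared by parathyroid hormone and parathyroid hormone-related protein, which couples to the stimulatory G protein and to cyclic AMP. It stood at 21.5, 21.9 and 20.1 FPKM in KO and 24.5, 24.9 and 24.5 in WT. Every KO library was below every WT library. The fall was modest, with a log2 change of -0.27 ± 0.04 and 83.1% of the WT level (95% interval 78.2 to 88.3%, edgeR adjusted p = 6.68e-04). A muscle gene on the opposite strand, Myl3, overlaps the deposited Pth1r span, but it had only 185 counts over the 6 libraries against 4183 or more per library for Pth1r.

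Ghr encodes the growth hormone receptor, a cytokine-type receptor that activates JAK2 and STAT5. Its level was 6.76, 6.60 and 6.95 FPKM in KO and 6.80, 7.23 and 7.12 in WT, so the groups overlapped. The log2 difference of -0.11 ± 0.04 was not called (edgeR adjusted p = 0.0942), with a 95% interval of -0.20 to -0.02. In CPM the KO libraries lay just below the WT libraries.

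Vdr, the vitamin D receptor, was the only receptor of the set that rose. Its counts were 1867, 1482 and 1955 in KO and 1306, 1213 and 1075 in WT, or 4.15, 4.02 and 4.27 FPKM against 3.26, 3.03 and 2.62. All KO values were above all WT values. The level in KO was 135% of WT (95% interval 119 to 153%), a log2 change of 0.43 ± 0.08 (edgeR adjusted p = 0.00341).

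The thyroid hormone receptor genes lay far apart in level. Thra, whose product is the main thyroid hormone receptor of bone, was at 28.6, 32 and 28.2 FPKM in KO and 37.4, 40.9 and 40.1 in WT. Its groups did not overlap, and KO stood at 72.4% of WT (95% interval 67.1 to 78.2%), a log2 change of -0.47 ± 0.05 (edgeR adjusted p = 7.02e-05). Thrb, the form that dominates in liver and pituitary, was at 1.96, 1.87 and 1.96 FPKM in KO and 2.31, 1.69 and 1.95 in WT. These groups overlapped, and the log2 difference of -0.09 ± 0.10 was not called (edgeR adjusted p = 0.613). There were thus 14.4 to 17.1 times as many Thra as Thrb fragments per length in KO and 16.2 to 24.2 times in WT. The ranges of that ratio overlapped (exact permutation p = 0.2, two-sided, and 0.4 after adjustment over 8 ratios). With 3 against 3 libraries p cannot go below 0.1, so no ratio here could pass, whether or not it differed. Counts per gene do not separate the Thra transcripts that encode the hormone-binding receptor from any of the form that binds no hormone. The neighbour Nr1d1, a clock repressor on the opposite strand, has its nearer end 2821 bases beyond the deposited end of Thra. Its log2 difference was 0.11 ± 0.08 (edgeR adjusted p = 0.364).

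Rarg encodes the retinoic acid receptor most abundant in skeletal tissue. It stood at 24.9, 24.4 and 24.1 FPKM in KO and 25.6, 25.8 and 25.5 in WT, without overlap, and the log2 change was only -0.12 ± 0.03 (edgeR adjusted p = 0.0147). The call did not hold on library totals without TMM (log2 change -0.07, adjusted p = 0.131) or when limma was run on log2-transformed FPKM with a pseudocount of 1 (-0.06, limma adjusted p = 0.182), and over 14 alternatives its adjusted p ran from 0.0178 to 0.195. Its relatives were lower in level. Rara was at 8.60 ± 0.206 against 9.13 ± 0.339 FPKM (SD, n = 3, edgeR adjusted p = 0.071). Rarb, itself a classic retinoic acid target, was at 0.080 ± 0.0418 against 0.0626 ± 0.0144 FPKM (edgeR adjusted p = 0.725). Rarg exceeded Rara 2.8-fold to 2.89-fold in KO and 2.69-fold to 2.9-fold in WT, overlapping ranges (exact permutation p = 0.7, adjusted 0.8).

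Esr1, the oestrogen receptor alpha gene, was barely read. Its counts were 124, 135 and 221 in KO and 261, 227 and 170 in WT, or 0.111, 0.151 and 0.199 FPKM against 0.268, 0.233 and 0.171. The groups overlapped because KO replicate 3 was above WT replicate 3. The log2 difference of -0.59 ± 0.25 was not called (edgeR adjusted p = 0.127). Leaving out KO replicate 3 gave a call (-0.82, edgeR adjusted p = 0.0476), and over 12 alternatives the adjusted p reached 0.35. Esr2, for oestrogen receptor beta, had fewer counts than Esr1 in each library, at 45, 42 and 74 in KO and 17, 16 and 23 in WT. That gene passed as higher (1.39 ± 0.40, edgeR adjusted p = 0.0313), but not when KO replicate 2 or 3 or WT replicate 1 or 2 was left out (adjusted p = 0.057, 0.145, 0.0857 and 0.0851) or with the replicate number as a block (adjusted p = 0.0554). Per length, Esr1 was 0.671, 0.789 and 0.735 times Esr2 in KO and 3.83, 3.5 and 1.89 times in WT. These ratios did not overlap (exact permutation p = 0.1, the smallest possible, adjusted 0.267). Gper1, the membrane receptor reported to bind oestrogen, was read well above both, and fell from 9.66, 10.0 and 10.8 FPKM in WT to 5.94, 5.35 and 5.4 in KO (-0.92 ± 0.07, edgeR adjusted p = 5.82e-06).

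Nr3c1 encodes the glucocorticoid receptor, through which cortisol-like hormones act in nearly all cells. Its level was 18.4, 18.6 and 19.1 FPKM in KO and 20.8, 19.8 and 19.9 in WT. The groups did not overlap, and KO was at 89.7% of WT (95% interval 85.2 to 94.4%), a log2 change of -0.16 ± 0.03 (edgeR adjusted p = 0.00586). With limma on FPKM and a pseudocount of 1 it was -0.10 and not called (limma adjusted p = 0.0809). The mineralocorticoid receptor Nr3c2, which binds the same hormones, was at 0.365 ± 0.0357 against 0.391 ± 0.047 FPKM and was not called (edgeR adjusted p = 0.631). Nr3c1 exceeded it 47.9-fold to 57-fold in KO and 48.4-fold to 58.3-fold in WT.

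**Figure D3:**
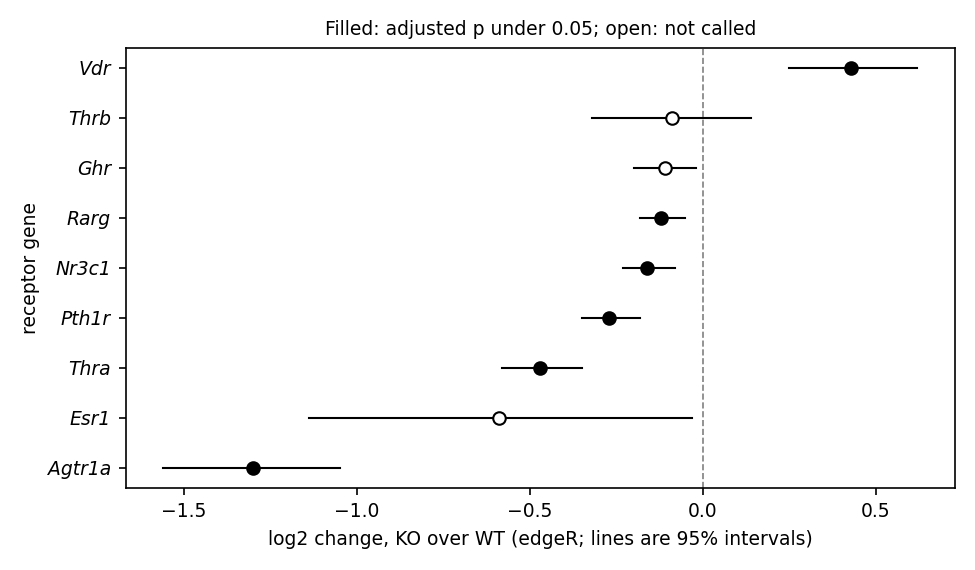
Log2 change of KO over WT for the 9 receptors by edgeR, with lines for the 95% interval, filled points for adjusted p under 0.05 and open points for genes not called. Agtr1a lies farthest to the left at -1.30, Vdr is the only called gene to the right of 0, and Esr1 has the widest interval.

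On the chromosomes the members were scattered, with Vdr, Ghr and Rarg on chromosome 15 and the others on chromosomes 9 (Pth1r), 10 (Esr1), 11 (Thra), 13 (Agtr1a), 14 (Thrb) and 18 (Nr3c1). No source used here names the mouse build of the deposited coordinates. They place Agtr1a at 30520424 to 30566850, which excludes its GRCm38 coding exon given above, so they are not on that build. In those coordinates Vdr spans 97752306 to 97808511, Rarg 102143373 to 102165952 and Ghr 3347242 to 3612712, all on the minus strand. They lie far apart on that chromosome, and their log2 differences were 0.43 for Vdr, -0.12 for Rarg and -0.11 for Ghr, the last not called. The table's own annotation placed Vdr, Thra, Thrb and Rarg in a THR-like family of transcription factors, and Esr1 and Nr3c1 in an ESR-like family. The THR-like family held the called gene that rose and called genes that fell.

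For each receptor, the gene of most similar pattern was taken as the smallest root mean square difference of mean-centred log2 CPM over the 6 libraries, among about 10839 genes at 5 CPM or more. For Agtr1a this was Chodl, a lectin-like membrane protein gene (difference 0.0998, log2 change -1.31). For Vdr it was S100a4, a calcium-binding protein gene (0.0206, log2 change 0.44), and for Thra it was Tmem252 (0.0341, log2 change -0.50). Pth1r was closest to Wiz (0.0145), Nr3c1 to Atxn7l3 (0.0108), Rarg to Mia3 (0.00961), Ghr to Birc6 (0.0102) and Thrb to Clcn6 (0.0303). The nearest gene to Esr1, Dedd2, was far from it by this measure (0.156).

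Partners of the nuclear receptors were mostly lower in KO by small amounts. Of 15 tested partners and coregulators 10 were lower and none higher, against 11.7% and 11.2% of all tested genes. Their median log2 change was -0.14. On library totals without TMM only 5 were lower, where 24.1% of all tested genes were called in either direction. Ncoa1, a steroid receptor coactivator, was at 2.24 ± 0.181 against 2.98 ± 0.0855 FPKM (-0.46 ± 0.07, edgeR adjusted p = 8.16e-04). Rxrb, a partner of the vitamin D, thyroid hormone and retinoic acid receptors, as is Rxra, was at 9.70 ± 0.204 against 11.6 ± 0.564 FPKM (-0.30 ± 0.05). Tbl1xr1, of the corepressor complex, changed by -0.17 ± 0.03 (called in 13 of 14 alternatives), and Ppargc1a, a coactivator of energy metabolism, by -0.98 ± 0.17. The best-read partner, Rxra, was at 21.8 ± 0.315 against 22.5 ± 0.584 FPKM, and its call (-0.10 ± 0.03, edgeR adjusted p = 0.0403) was kept in only 2 of 14 alternatives.

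Genes that make, carry or clear the hormones moved in both directions. Of 29 tested members of that list 5 rose and 8 fell, against 11.2% and 11.7% of all tested genes, with a median of -0.12. In the retinoic acid branch, Aldh1a1, which oxidises retinal to retinoic acid, rose from 12, 12.5 and 12.2 FPKM in WT to 30.5, 30.5 and 29.6 in KO (1.25 ± 0.03, edgeR adjusted p = 2.54e-09). Aldh1a2, the enzyme of the same step in the embryo, fell from 0.956 ± 0.305 to 0.324 ± 0.035 FPKM. The retinoic acid carrier Crabp1 fell from 29.6 ± 2.93 to 14.6 ± 0.682 FPKM (-1.07 ± 0.08), and Cyp26b1, which degrades retinoic acid, rose from 13.4 ± 0.125 to 18.2 ± 1.14 FPKM (0.39 ± 0.05).

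In the thyroid branch, Dio3, which inactivates thyroid hormone, rose from 7.52 ± 0.881 to 11.1 ± 0.649 FPKM (0.51 ± 0.09, edgeR adjusted p = 0.00194). Dio2, which activates the hormone, was read at 0.329 ± 0.0517 against 0.414 ± 0.102 FPKM and was not called (edgeR adjusted p = 0.301). In the angiotensin branch, the precursor gene Agt was at 0.737, 1.13 and 1.3 FPKM in KO and 2.65, 2.51 and 2.21 in WT (-1.27 ± 0.21, edgeR adjusted p = 0.0016). Ace, the converting enzyme, was at 0.933 ± 0.0155 against 1.35 ± 0.0584 FPKM (-0.58 ± 0.10). The parathyroid hormone-related protein gene Pthlh was near the limit of reading, at 0.106 ± 0.0733 against 0.161 ± 0.0925 FPKM (edgeR adjusted p = 0.577). Hsd11b1, which regenerates active glucocorticoid inside cells, stood at 0.932 ± 0.0846 against 0.906 ± 0.111 FPKM (edgeR adjusted p = 0.982). Igf1, a growth factor that growth hormone and parathyroid hormone induce in bone, fell from 45.6, 41.6 and 43.6 FPKM in WT to 35.1, 34.8 and 33.6 in KO (-0.39 ± 0.03, edgeR adjusted p = 1.82e-05).

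**Figure D4:**
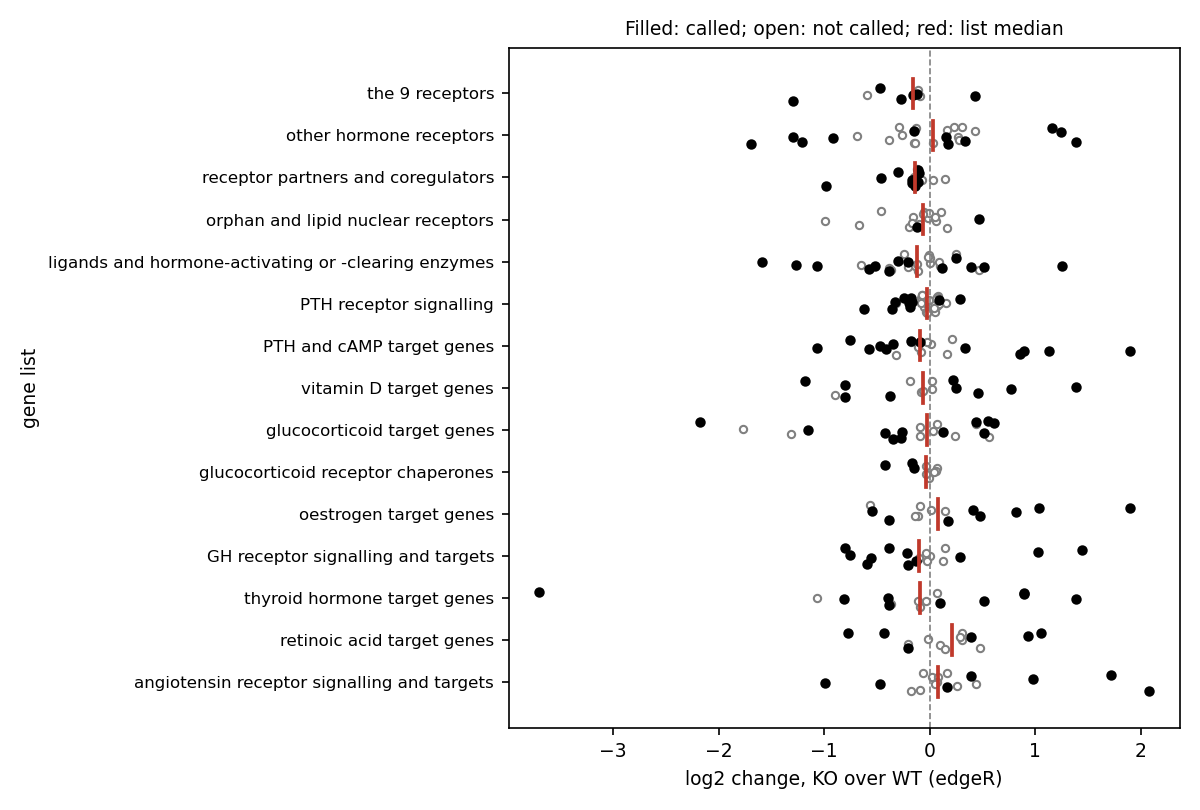
Log2 change of KO over WT for the tested genes of the receptor and hormone lists (cell type marker lists are not drawn), with filled points for called genes, open points for genes not called and a red line at the list's median. The medians of these lists lie between -0.16 for the 9 receptors and 0.22 for retinoic acid target genes, and every target list holds called genes on both sides of 0.

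Of 34 genes that carry the signal of the parathyroid hormone receptor into the cell 2 were higher and 8 lower, against 11.2% and 11.7% of all tested genes, with a median of -0.03, and 5 were called in each direction on library totals without TMM. Gnas, for the stimulatory G protein subunit, was at 119 ± 2.78 against 130 ± 1.77 FPKM (-0.18 ± 0.02, edgeR adjusted p = 1.49e-04). The cyclic AMP phosphodiesterase Pde7b changed by -0.62 ± 0.06, the histone deacetylase Hdac5 by -0.33 ± 0.04 and the adenylyl cyclase Adcy7 by -0.24 ± 0.04. Of 21 tested target genes of parathyroid hormone and cyclic AMP, 5 rose and 8 fell (median -0.09). The target lists here and below do not separate induced from repressed genes, so these counts give no direction of hormone action. The collagenase Mmp13 rose from 104 ± 8.40 to 199 ± 10.0 FPKM, the prostaglandin synthase Ptgs2 from 1.24 ± 0.137 to 2.81 ± 0.245, and the RANKL decoy Tnfrsf11b from 15.3 ± 1.11 to 59.0 ± 3.14. Efnb2, an ephrin that parathyroid hormone induces, fell from 17.2 ± 0.301 to 13.5 ± 0.239 FPKM, and the immediate early nuclear receptors Nr4a1 (-0.58 ± 0.11, called in 13 of 14 alternatives) and Nr4a2 (-0.76 ± 0.12) fell too.

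Targets of the vitamin D receptor split as well, with 5 of 15 tested genes higher, 4 lower and a median of -0.06. Among all tested genes 11.2% were higher and 11.7% lower. Cyp24a1, the enzyme that degrades vitamin D and the most sensitive known target, was read at 0 counts in 5 libraries and 8 in WT replicate 3, too few to test. Spp1, for osteopontin, and the cell cycle inhibitor Cdkn1a rose (1.39 ± 0.07 and 0.77 ± 0.03). The IGF carrier Igfbp3 (-0.80 ± 0.03) and the integrin Itgb3 (-0.80 ± 0.07) fell. Spp1 is also abundant in macrophages, whose markers were higher in the same libraries, and their part in its rise was not tested.

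Of 20 tested glucocorticoid target genes 5 rose and 6 fell, against 11.2% and 11.7% of all tested genes, with a median of -0.03. Fkbp5, a chaperone cofactor that glucocorticoid induces strongly, fell from 1.35, 1.60 and 1.49 FPKM in WT to 1.11, 1.21 and 1.11 in KO (-0.42 ± 0.08, edgeR adjusted p = 0.00435). Tsc22d3, also known as GILZ (-0.26 ± 0.04), and Per1 (-0.35 ± 0.06), both picked after their values were seen, fell too. So did the growth inhibitor Cdkn1c (-1.15 ± 0.04) and glutamine synthetase, Glul (-0.27 ± 0.04). Other targets on the same list rose, among them the stress gene Ddit4 (0.55 ± 0.06) and the transcription factor Cebpd (0.61 ± 0.07). Of 9 receptor chaperones 3 were lower and none higher. They were Fkbp5, Fkbp4 (-0.15 ± 0.03, called in 12 of 14 alternatives) and Bag1 (-0.17 ± 0.04, called in 9 of 14), while on library totals without TMM 2 were higher and 2 lower.

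Among 14 tested oestrogen target genes 6 rose and 2 fell, against 11.2% and 11.7% of all tested genes (median 0.08). Cyclin D1, Ccnd1, went from 70.8 ± 0.473 to 151 ± 2.15 FPKM, and caveolin 1, Cav1, from 34.2 ± 2.20 to 62.4 ± 1.92. The lysosomal protease Ctsd, abundant in macrophages too, changed by 0.48 ± 0.02. Of 17 tested genes of growth hormone signalling and response 3 rose and 8 fell (median -0.10). Socs3, a brake on JAK signalling, rose from 8.71 ± 0.714 to 24.5 ± 0.34 FPKM (1.44 ± 0.06), whereas Socs2, the brake most closely tied to growth hormone, fell from 3.18 ± 0.181 to 2.18 ± 0.177 (-0.59 ± 0.07). Igfbp5, which binds IGF in bone matrix, changed by -0.76 ± 0.03.

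Of 15 tested thyroid hormone target genes 5 rose and 4 fell, against 11.2% and 11.7% of all tested genes (median -0.09). Hr, the hairless corepressor gene and a direct thyroid hormone target, fell from 26.1, 26.6 and 25.8 FPKM in WT to 16.3, 15 and 15.2 in KO (-0.81 ± 0.04, edgeR adjusted p = 1.17e-07). Nrgn, a calmodulin-binding protein gene that responds to thyroid hormone in brain, fell from 14.7 ± 1.49 to 1.17 ± 0.665 FPKM (-3.70 ± 0.28). Of 14 tested retinoic acid target genes 3 rose and 3 fell (median 0.22). Besides Cyp26b1, Tinagl1 (0.93 ± 0.18) and the receptor kinase Ret (1.05 ± 0.24) rose and the homeobox gene Meis1 fell (-0.77 ± 0.07).

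Of 17 genes of angiotensin signalling and response 5 rose and 2 fell, against 11.2% and 11.7% of all tested genes (median 0.08). Ccn2, a matrix growth factor, went from 132 ± 4.29 to 270.0 ± 12.7 FPKM (0.98 ± 0.04). Rgs5, a pericyte gene that damps receptors coupled to G proteins, rose from 0.476 ± 0.0744 to 2.10 ± 0.224 FPKM (2.08 ± 0.15). The oxidase subunit Cybb rose 3.28-fold, and it is a phagocyte gene, in libraries where 11 of 12 macrophage markers were higher.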

How the data were processed

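The authors deposited 1 table with a count column and an FPKM column for each library. Groups and replicate numbers came from the labels. Counts per gene were deposited as whole numbers, and the counting method and strand setting were not given in the sources used here. FPKM was computed by the authors, per the file headers. The submitters' processing notes name cutadapt 1.9, HISAT2 2.0.4 and StringTie 1.3.4d. They list a human build, although identifiers are of mouse.

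Counts were tested with edgeR 4.0.16 (glmQLFTest, TMM, filterByExpr, genotype as the sole term, two-sided), in R 4.3.3. Standard errors are the log2 change over the root of F, and adjusted p runs over all 18221 tested genes. Ratios of FPKM used exact permutation tests. Over genes with enough counts, the median squared difference between replicates was 5.94 to 6.96 times that expected from counting noise. The common biological coefficient of variation was 12.6%. For a typical gene library spread thus outweighed counting noise, which need not hold for genes of few counts. The fits were tested on simulated data.

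The members and lists were chosen with earlier results of these data known. The 24 lists held 363 symbols with the members, of which 347 were matched and 16 were not analysed here. Named genes were the members, up to 4 per list of lowest p, set relatives (such as Agtr1b, Rxra and Igf1) and the nearest pattern. Agt, Ace, Aldh1a2, Dio3, Socs2, Nr4a1, Nr4a2, Tsc22d3, Per1 and the osteoblast genes used to check the label were chosen after their values were seen. Some genes that the rule or this choice would name are not reported here. Alternatives were DESeq2 1.42.0, other scalings, no filter, a replicate block, limma 3.58.1 on FPKM and leaving out each library.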

Additional observations from a re-analysis of the deposited data

How the results depend on the processing

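Pth1r, Vdr, Thra and Agtr1a kept their direction and call in all 14 alternatives. Nr3c1 was not called in the 3 limma fits on FPKM (adjusted p = 0.0809, 0.091 and 0.0793), and Rarg was not called there or on library totals without TMM. The number of called receptors ran from 4 in limma to 7 without KO replicate 3, and called genes overall from 3242 to 4398. Leaving out each library in turn gave Thrb -0.19 to 0.03 (turned without WT replicate 1), Rarb -0.12 to 0.59 (turned without KO replicate 2) and Hsd11b1 -0.08 to 0.10 (turned without KO replicate 1, 0.06, or WT replicate 3). Hsd11b1 also turned to 0.04 without TMM, 0.00 without a count filter and 0.02 in limma without a filter. None of these 3 genes was called in any alternative, and the cause was not tested. Over 78 genes followed, 1008 of the gene and setting pairs kept direction and call, 50 lost the call, 3 gained it and 7 changed sign. On library totals the median of all genes shifted to 0.05.

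With the replicate block, 3888 genes and 6 receptors were called. Same-numbered libraries did not deviate together (correlations of deviations -0.0545, -0.0171 and 0.004). With 3 libraries per genotype, such values cannot tell whether same-numbered libraries shared a preparation. Cyp24a1 had too few counts to test, and Esr1 (124 to 261 counts per library) and Esr2 (16 to 74) had few.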

Other observations

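Other hormone receptors, from a list of 31 with 25 tested, had 6 members higher and 5 lower in KO (median log2 change 0.03). For this list and the next, the shares over all tested genes were 11.2% higher and 11.7% lower. Lepr, the leptin receptor and a marker of marrow stroma, rose from 0.534, 0.549 and 0.557 FPKM in WT to 1.24, 1.35 and 1.21 in KO (1.16 ± 0.10, edgeR adjusted p = 2.01e-05). Npr2, the receptor for C-type natriuretic peptide that promotes bone growth, rose from 26.3 ± 0.435 to 34.3 ± 1.19 FPKM (0.33 ± 0.03, edgeR adjusted p = 3.39e-05). Prlr, the prolactin receptor, fell from 0.563 ± 0.0438 to 0.235 ± 0.0324 FPKM (-1.30 ± 0.13, edgeR adjusted p = 5.18e-05). Among 17 tested orphan and lipid nuclear receptors only Nr2f2, also known as COUP-TFII (0.47 ± 0.06), was higher and only Nr2f6 (-0.12 ± 0.04, edgeR adjusted p = 0.043) was lower, and Nr2f6 was not called in any of 14 alternatives (adjusted p from 0.0541 to 0.205). On library totals without TMM that list had 2 higher and 0 lower.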
